A study of Mus musculus with 6 samples.

Results

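Mouse chromosome 17 was followed along its length in 5 malignant mesotheliomas. The chromosome was represented by the probes that a denser array design places on it, without the probes of genes whose names start with H2- (genes of the mouse histocompatibility complex). These were 8788 of the 235402 probe names of the denser design, with 37 H2- probes left out, and 1682 of the 42404 probe names of a sparser design were the same probes. The chromosome was chosen by its mean log2 ratios and its called segments on these same arrays. All values of gain and loss below are therefore descriptions, and no test was made on them.

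Malignant mesothelioma arises from the mesothelium, the thin cell layer that covers the lungs, heart and abdominal organs, and the study's title names asbestos as its cause in these mice. The design text speaks of primary tumour cells from 4 Arf (+/-) mice, which carry 1 working copy of the tumour suppressor gene Arf. The titles, however, name 5 tumours. Whether 1 title lies outside the 4 mice, and which, or whether 1 mouse gave more than 1 tumour, is not known. ARF-104, ARF-112 and ARF-129 were hybridised to the denser design, ARF-110 to the sparser design, and ARF-128 to both, and the labels give no age or background strain for them. The labels call the DNA that of primary malignant mesothelioma cells, but for ARF-104 no cell type is stated. On every array the tumour was labelled with Cy5, and the common reference, C57BL/6J DNA, with Cy3. The denser array of ARF-128 carries the addition PlusMinus in its title, the meaning of which is not given. ARF-128 was counted once and is represented by its denser array unless the sparser one is named. The 5 tumours form 1 group, so no comparison between groups exists.

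In array comparative genomic hybridisation the DNA of a tumour and of a normal animal compete for the same probes, and the log2 ratio of the colours at a probe follows the relative number of copies there. In a diploid tumour with no normal cells mixed in, a gain of 1 copy would give a log2 ratio of 0.58 and a loss of 1 copy a ratio of -1. Normal cells in the sample and cross-hybridisation pull both towards 0, so a small ratio can be a change in all cells or a larger one in some of them, and these cannot be told apart here. Mouse chromosomes have their centromere at one end. The first probe therefore lies near the centromere and the last one near the telomere, and a terminal loss is the loss of the end of the long arm. Chromosome 17 carries the histocompatibility complex with the gene of tumour necrosis factor, the tumour suppressor genes Tsc2 and Axin1, and near its end the mismatch repair gene Msh6.

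The places where the ratio changed are known only as far as the spacing of the probes allows, and the median distance between neighbouring members was 7542 bases on the denser array of ARF-128 and 19286 bases on the sparser arrays. The pairs of probes on each side of the changes discussed below are shown here because they are the sequences that bound them. Positions are mouse genome build mm7, which the file of the denser ARF-128 array names, and the sequences are printed as deposited, with the strand not determined. The terminal loss of ARF-104 began between the first and the second probe of this list, both of which carry the name of the transcript AK080360. The longer gain of ARF-104 began between the third and the fourth (at Fkbpl, a gene of the FK506-binding protein family) and ended between the fifth and the sixth. A step at the same pair of probes in ARF-104 and ARF-112 lies between the seventh and the eighth. The short gain of ARF-112 began between the ninth and the tenth, both in Ccdc94, and ended between the eleventh (in Cd70, which the files call Tnfsf7) and the twelfth.
AK080360 left probe chr17:86704955-86705014: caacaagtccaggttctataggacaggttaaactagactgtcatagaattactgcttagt
AK080360 right probe chr17:86721385-86721444: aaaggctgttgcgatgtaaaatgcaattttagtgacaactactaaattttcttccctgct
Intergenic probe chr17:32726141-32726200: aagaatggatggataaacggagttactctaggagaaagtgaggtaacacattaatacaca
Fkbpl probe chr17:32730809-32730858: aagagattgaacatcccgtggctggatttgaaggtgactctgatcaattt
Intergenic probe chr17:83140276-83140332: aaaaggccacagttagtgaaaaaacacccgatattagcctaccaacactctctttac
Intergenic probe chr17:83163472-83163531: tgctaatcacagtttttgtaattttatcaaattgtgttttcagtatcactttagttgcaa
Intergenic probe chr17:21233493-21233552: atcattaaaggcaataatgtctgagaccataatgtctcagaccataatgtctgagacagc
Intergenic probe chr17:21259729-21259788: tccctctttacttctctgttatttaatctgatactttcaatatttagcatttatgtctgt
Ccdc94 left probe chr17:54123491-54123543: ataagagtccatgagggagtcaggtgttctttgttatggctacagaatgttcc
Ccdc94 right probe chr17:54127661-54127716: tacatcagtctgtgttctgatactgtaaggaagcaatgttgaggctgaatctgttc
Cd70 probe chr17:55360686-55360736: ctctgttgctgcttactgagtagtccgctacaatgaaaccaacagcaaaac
Intergenic probe chr17:55365158-55365217: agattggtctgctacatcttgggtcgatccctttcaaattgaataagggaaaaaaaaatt
Probes named intergenic here are those that the files name by position alone, with no gene. Most members, 7742 of 8788, were 60 bases long, and the shortest had 45. DNA was cut with AluI (AGCT) and RsaI (GTAC) before labelling. Of the 8788 members 1 holds AGCT and 0 hold GTAC on either strand, as both motifs read the same on both strands, against 49 and 30 of the 220065 autosomal probes.

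The level of chromosome 17 was the mean log2 ratio of its members after each array was centred on the median of its autosomal probes. It was 0.12 for ARF-104, 0.00 for ARF-110, 0.03 for ARF-112, -0.07 for ARF-128 and 0.30 for ARF-129, with a mean of 0.08 ± 0.14 (SD, n = 5). ARF-129 stood highest, ARF-104 next, and the other three lay between -0.07 and 0.03. The sparser array of ARF-128 gave -0.01. Ranked from the highest of 19 autosomes, chromosome 17 was in place 4 for ARF-129, 5 in ARF-104 and ARF-110, 7 for ARF-112 and 15 for ARF-128, and in place 5 on the sparser array of ARF-128. Averaged over the 5 tumours it stood in place 4, after chromosomes 19 (0.43 ± 0.13), 15 (0.35 ± 0.27) and 8 (0.26 ± 0.32), and next to chromosome 6 (0.08 ± 0.12, SD, n = 5 each).

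The arrays differed in noise, taken as the SD that neighbouring autosomal probes would have without copy changes, and this limits what each can show. It was 0.36 for ARF-104, 0.15 for ARF-110 and 0.39 for ARF-112, and 0.49 for ARF-129. The arrays of ARF-128 had 0.78 (denser) and 0.43 (sparser). The red signal of the median spot was between 4.14 and 11.1 times its background, lowest on the denser array of ARF-128. The arrays were scanned in 3 groups. ARF-110 and the sparser array of ARF-128 formed one, ARF-104, ARF-112 and ARF-129 the next, and the denser array of ARF-128 stood alone. The called changes on chromosome 17 all came from the second group. Its arrays share scan group and design, and they differed among themselves. In the stretch of the terminal loss ARF-104 had -0.82, ARF-112 -0.09 and ARF-129 0.18. Against the arrays of the other groups, scan group and tumour cannot be told apart for these changes. Against the sparser arrays, array design cannot be told apart from them either.

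Members were joined into segments of equal level by penalised least squares, and a segment was called gained at a mean of 0.25 or above and lost at -0.25 or below. In ARF-129 all of the 8787 measured members lay in 1 segment called gained, that is 100% of the chromosome, against 20.7% of its autosomal probes. In ARF-104 53.0% of the members were in a gained segment, against 16.8% of autosomal probes, and 6.17% in a lost one, against 1.11%. In ARF-112 2.61% were gained, against 9.19% of autosomal probes, and 0% lost, against 14.8%. ARF-110 and both arrays of ARF-128 had 1 uncalled segment each, although 13.4% of the autosomal probes of ARF-110 and 8.04% of those of ARF-128 (8.53% on its sparser array) lay in gained segments. The share of autosomal probes in lost segments was 2.73% for ARF-110, 1.77% in ARF-128 (1.76% on its sparser array) and 26.9% for ARF-129. Over the 5 tumours 31.1% ± 44.6 of the members were gained and 1.23% ± 2.76 lost (SD, n = 5). These means have SDs larger than themselves because single tumours carry them.

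**Figure D1:**
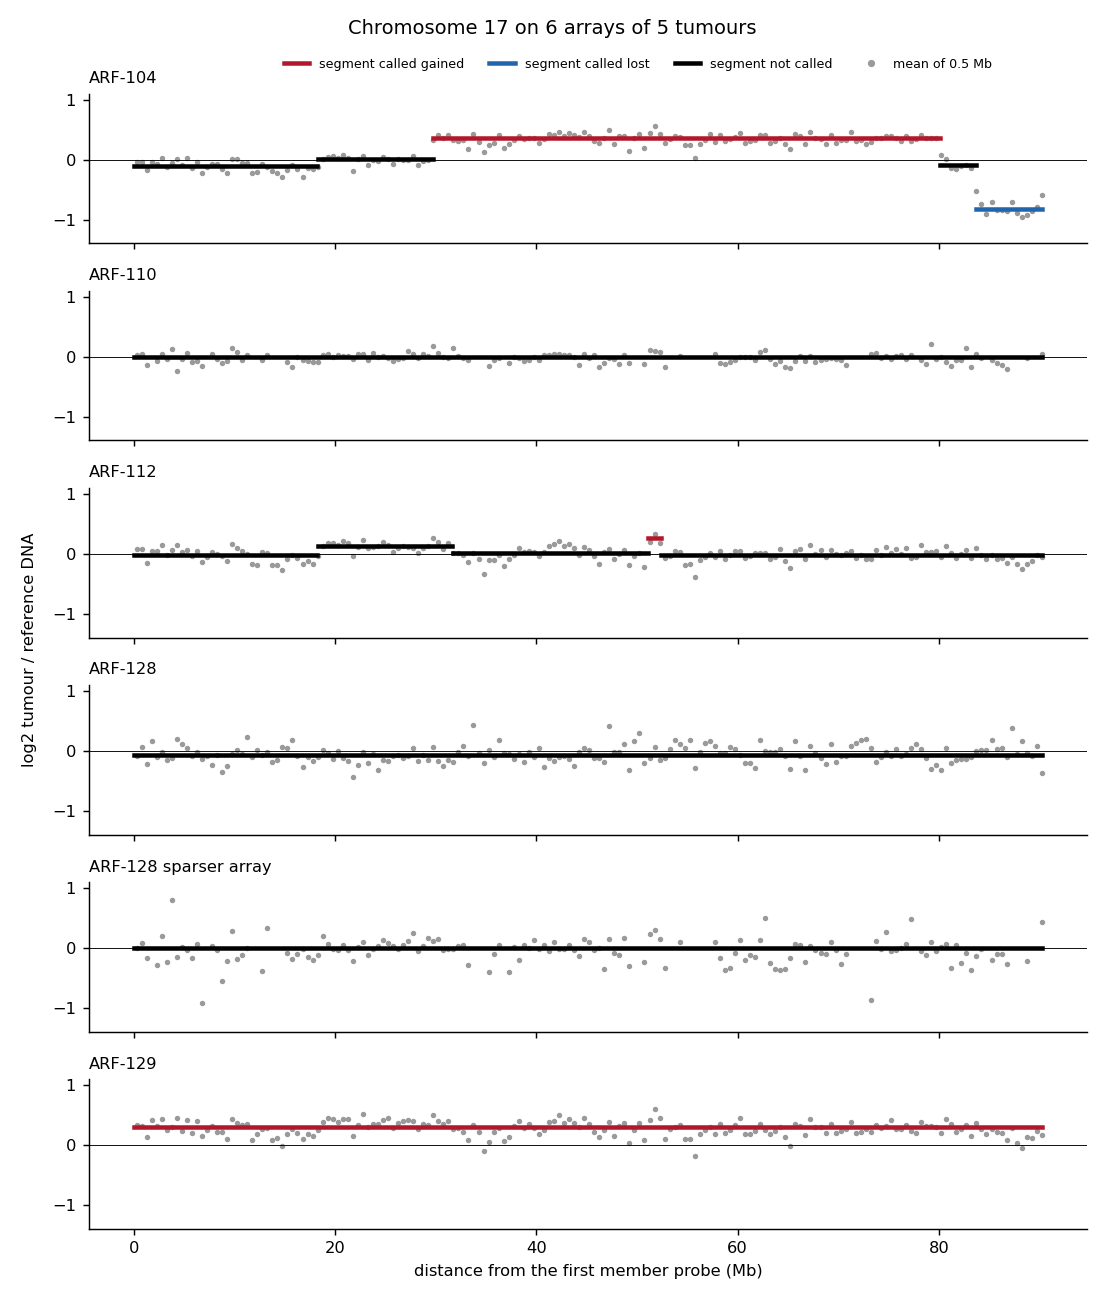
Log2 ratio of tumour to reference DNA along chromosome 17 for the 6 arrays, against the distance from the first member probe in Mb. Grey points are means of 0.5 Mb, and lines are segments, red where called gained, blue where called lost and black where not called. ARF-104 holds a long gain at 0.36 and a terminal loss at -0.82, ARF-129 lies at 0.30 throughout, and ARF-112 has a short gain at 0.26.

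Chromosome 17 of ARF-104 was divided into 5 segments, as many as in ARF-112. The first, chr17:3006536-21233552, held 1597 probes at a mean of -0.11 and was not called. The second, chr17:21259729-32726200, held 1652 probes at 0.01, close to the level of the autosomes. The third, chr17:32730809-83140332, spanned 50.4 Mb with 4653 probes at 0.36, a tumour signal of 1.28 times that of the reference, and was called gained. The fourth, chr17:83163472-86705014, held 341 probes in 3.54 Mb at -0.09 and was not called. The fifth reached the last probe of the chromosome, chr17:86721385-93273941, with 542 probes in 6.55 Mb at -0.82, a tumour signal of 0.568 times that of the reference, and was called lost. With normexp background correction the same segment stood at -0.32 and was still called. Thus the gain covered the middle and most of the distal part of the chromosome, and a stretch near the autosomal level separated it from the terminal loss.

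At the scale of 5 Mb the gain of ARF-104 was fairly even. Every window of 5 Mb that lay inside it had a mean between 0.28 and 0.40, the lowest between 35 and 40 Mb and the highest between 50 and 55 Mb. Shorter stretches stood higher, with 0.55 over its first 50 probes and 0.49 over chr17:54127661-55360736. In ARF-104 13 autosomal segments were called gained, and by length the one on chromosome 17 was in place 4, whereas by level it was in place 11. Gained segments on all autosomes of this tumour added up to 405 Mb.

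The terminal loss of ARF-104 was the only loss called on chromosome 17 in any tumour. Of its 542 probes 535, or 98.7%, were below 0, and the SD among them was 0.38, close to the noise of 0.36. In successive stretches of 1 Mb from its start the mean was -0.75, -0.78, -0.84, -0.85, -0.92 and -0.84, and -0.70 in the remaining piece. The loss was thus nearly flat to the last probe, with its least negative values at both ends. In this tumour 13 autosomal segments were called lost, adding up to 32.9 Mb, and the one on chromosome 17 was second in length after one of 17.9 Mb on chromosome 4. It was the only one of the 13 that reached the last probe of its chromosome. By depth it came in place 11 of 13, while the deepest of the larger losses, a segment of 3.28 Mb on chromosome 4, stood at -3.30.

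The same terminal stretch was not called lost in the other 4 tumours. Its mean was -0.02 for ARF-110 (31 probes), -0.09 for ARF-112, 0.02 for ARF-128 and 0.18 for ARF-129 (543 probes each), and -0.09 on the sparser array of ARF-128 (31 probes). The share of probes below 0 there was 54.8% for ARF-110, 57.8% for ARF-112, 48.4% for ARF-128 and 36.1% for ARF-129, against the 98.7% of ARF-104. In ARF-129 the stretch was lower than the rest of its chromosome, 0.18 against 0.31, and in ARF-112 also, -0.09 against 0.04. In ARF-128 it was higher, 0.02 against -0.08, and in ARF-110 both were near 0, -0.02 against 0.00. The lowest 1 Mb of the stretch was the same in 3 tumours, the fifth from its start, at -0.92 for ARF-104, -0.19 for ARF-112 and 0.03 for ARF-129. That dip was shared by 3 arrays of 1 scan group, and the loss itself was seen on 1 of them.

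**Figure D2:**
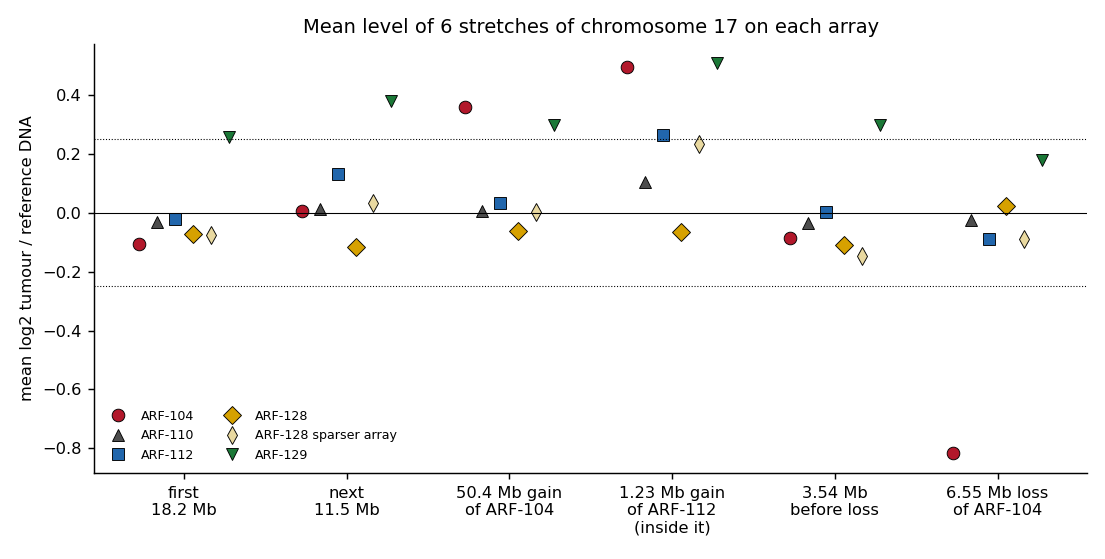
Mean log2 ratio of tumour to reference DNA in 6 stretches of chromosome 17, in order from the first probe, for each array; the stretch of the ARF-112 gain lies inside that of the ARF-104 gain. Dotted lines mark the thresholds of 0.25 and -0.25, and points are means over the probes of the stretch. In the terminal stretch ARF-104 lies at -0.82 and the other arrays between -0.09 and 0.18.

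The edge of the terminal loss was the largest step among the breakpoints placed on the chromosome. The 50 probes before it averaged -0.07 and the 50 after it -0.77 for ARF-104, a step of -0.70 ± 0.09 (SE over probes of this array, which covers no other source of error). The gap between the bounding probes was 16370 bases. The place could be moved to anywhere within 39.5 kb, chr17:86705014-86744506, before the squared residuals grew by more than 4 noise variances. The last probe before the edge had a log2 ratio of 0.08 in ARF-104 and the first one after it -1.13. At the same 2 probes ARF-110 had 0.15 and -0.10, ARF-112 0.10 and -0.52, ARF-128 1.07 and -0.60, ARF-129 0.36 and -0.40. The second of these probes was thus lower than the first on every array, by an amount that depends on the array, and the means over 50 probes are the better guide. Across those the step was 0.17 ± 0.12 for ARF-110, -0.05 ± 0.10 for ARF-112, -0.19 ± 0.18 in ARF-128 (0.21 ± 0.28 on its sparser array) and -0.05 ± 0.12 for ARF-129. None of these came near the size of the step for ARF-104.

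**Figure D3:**
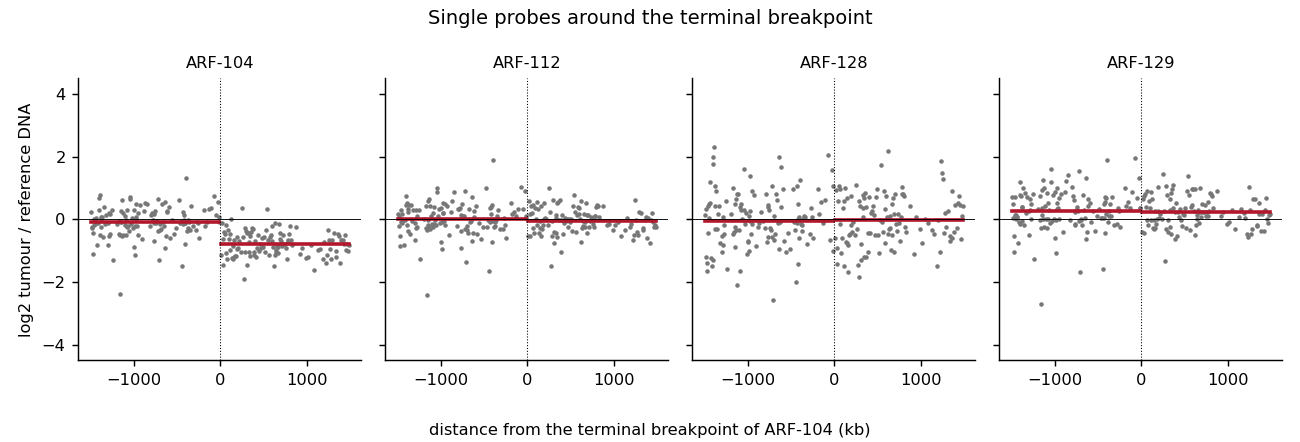
Log2 ratio of single probes within 1500 kb of the terminal breakpoint of ARF-104 on the 4 denser arrays, against the distance from it in kb. Red lines are the means on each side and the dotted line marks the breakpoint. The points shift downwards past the breakpoint for ARF-104, where the step over 50 probes was -0.70, and not by a like amount in ARF-112 (-0.05), ARF-128 (-0.19) or ARF-129 (-0.05).

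The ends of the long gain of ARF-104 were less alike. At its start, chr17:32726200-32730809, the step over 50 probes was 0.57 ± 0.08 for ARF-104, and the place could be moved within 34.0 kb. On the other arrays a smaller step of the same sign stood there, 0.22 ± 0.16 for ARF-110, 0.23 ± 0.09 for ARF-112, 0.34 ± 0.16 for ARF-128 and 0.21 ± 0.11 for ARF-129, and 0.00 ± 0.17 on the sparser array of ARF-128. Part of the local rise in ratio at this place was therefore common to most arrays, while the level that followed was not. The 50 probes after this start take in C4a, whose 15 probes may also read its near-identical copy C4b. On the denser arrays C4a averaged between 0.38 (ARF-128) and 0.84 (ARF-129). With normexp, chr17:32805328-32918788 was set apart in ARF-104, with 17 probes at 0.83. In ARF-129 chr17:32805328-32929377 was set apart likewise, with 18 probes at 0.77. How much of the shared rise rests on C4a was not tested. Over the 50.4 Mb of the gain the mean was 0.36 for ARF-104, 0.01 for ARF-110, 0.03 for ARF-112, -0.06 for ARF-128 and 0.30 for ARF-129. ARF-104 exceeded the rest of its own chromosome there by 0.51, and the other tumours differed from the rest of theirs by at most 0.02 in either direction. At the end of the gain, between 83140332 and 83163472, the step was -0.37 ± 0.11 for ARF-104. It was 0.01 ± 0.08 for ARF-110, -0.10 ± 0.12 for ARF-112, 0.07 ± 0.21 for ARF-128 and -0.08 ± 0.12 for ARF-129, and 0.22 ± 0.19 on the sparser array of ARF-128. A downward step beyond its SE was thus seen at this end in ARF-104 and on no other array.

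The step at 21.2 Mb behaved differently. ARF-104 and ARF-112 were both divided at the same pair of probes, 21233552 and 21259729, and the place could be moved within 520 kb for ARF-104 and 293 kb for ARF-112. The step over 50 probes was 0.28 ± 0.07 for ARF-104 and 0.37 ± 0.08 for ARF-112. A step of the same sign was present on every array on which no breakpoint was placed, 0.18 ± 0.07 for ARF-110, 0.35 ± 0.14 for ARF-128, 0.55 ± 0.17 on the sparser array of ARF-128 and 0.40 ± 0.10 for ARF-129. None of the segments on either side was called in ARF-104 or ARF-112. The probes of the first segment were also poorer in the bases G and C, 36.2% on average for ARF-104, than those of the second, 37.4%. With log ratios corrected for the G and C content of the probes the breakpoint was no longer placed in ARF-104 and remained for ARF-112. The part of the common C57BL/6J DNA and of the probes themselves in this shared step was not tested.

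**Figure D4:**
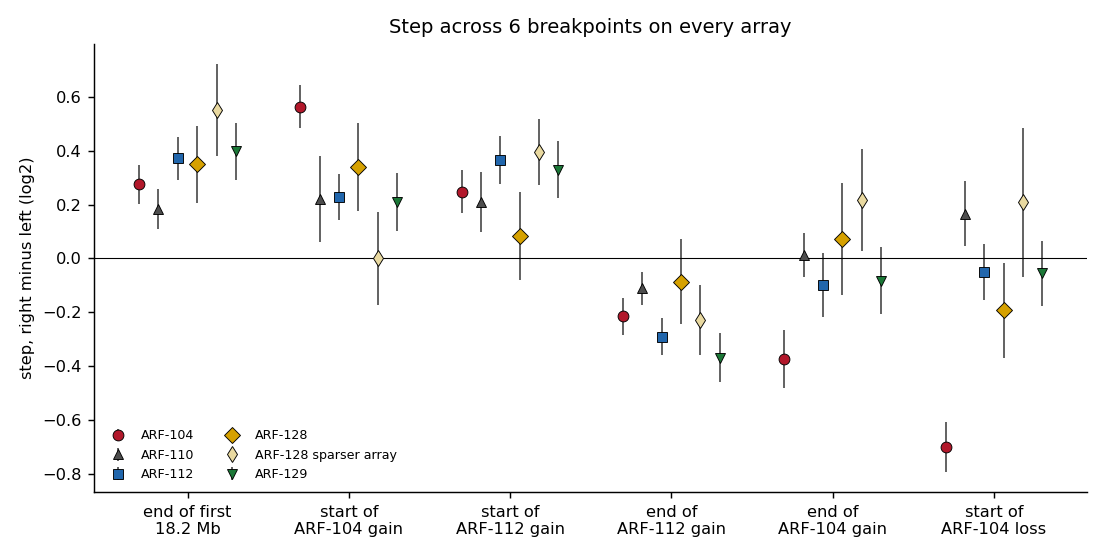
Difference in mean log2 ratio between the 50 denser-design probes after and the 50 before 6 breakpoints (sparser arrays use those of their probes that lie in the same spans), for each array, with bars of 1 SE over probes. The breakpoints are in chromosome order from left to right. At the end of the first 18.2 Mb all 6 arrays lie between 0.18 and 0.55, and at the start of the ARF-104 loss ARF-104 lies at -0.70 and the others between -0.19 and 0.21.

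ARF-112 had 4 breakpoints and 1 short gain. The gain, chr17:54127661-55360736, held 229 probes in 1.23 Mb at a mean of 0.26, just above the threshold of 0.25, and 27.5% of its probes were below 0. The segment next in level, chr17:21259729-34651128, stood at 0.14 (1962 probes) and was not called, and the other segments lay between -0.02 and 0.01. A further breakpoint of ARF-112, at 34.66 Mb, separated the levels 0.14 and 0.01 and could be moved within 820 kb. The step over 50 probes there was -0.14 ± 0.07 in ARF-112 and between -0.08 and 0.04 on the other arrays.

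The stretch of the short gain stood above the rest of the chromosome on most arrays. Its mean was 0.49 for ARF-104, 0.11 for ARF-110, 0.26 for ARF-112, -0.07 for ARF-128, 0.23 on the sparser array of ARF-128 and 0.51 for ARF-129. The excess over the rest of chromosome 17 was 0.39 for ARF-104, 0.11 for ARF-110, 0.24 for ARF-112, 0.21 for ARF-129, 0.25 on the sparser array of ARF-128, and 0.00 on its denser array. The steps at its edges had the same signs on every array, upwards at the start by 0.25 ± 0.08 for ARF-104, 0.21 ± 0.11 for ARF-110, 0.37 ± 0.09 for ARF-112, 0.08 ± 0.16 for ARF-128 and 0.33 ± 0.11 for ARF-129. At the end they were downwards, -0.22 ± 0.07 for ARF-104, -0.11 ± 0.06 for ARF-110, -0.29 ± 0.07 for ARF-112, -0.09 ± 0.16 for ARF-128 and -0.37 ± 0.09 for ARF-129. On the denser array of ARF-128 both steps were smaller than their SE, whereas its sparser array had 0.40 ± 0.12 at the start and -0.23 ± 0.13 at the end. The short gain of ARF-112 was therefore a step seen on most arrays that passed the threshold as a segment of its own in 1 tumour.

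The stretch was also richer in G and C than its surroundings. Its probes in ARF-112 averaged 38.1% G and C, against 36.5% in the segments on both sides. When the log ratios were corrected for the G and C content of the probes, its mean became 0.45 for ARF-104, 0.08 for ARF-110, 0.20 for ARF-112, -0.07 for ARF-128 and 0.46 for ARF-129, and no segment was set apart there for ARF-112. The long gain of ARF-104 (0.36 after correction) and its terminal loss (-0.81) hardly moved. Over 19 windows of 5 Mb the correlation of the window mean with its G and C content was 0.24 for ARF-104, 0.66 for ARF-110, 0.86 for ARF-112, -0.51 for ARF-128 and 0.84 for ARF-129, but 0.66 on the sparser array of ARF-128. Neighbouring windows share library and array, and the correlations are given as a description only. The arrays of ARF-128 thus ran in opposite directions along this chromosome in this respect.

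ARF-129 was called gained from end to end. All its 19 windows of 5 Mb were above 0, between 0.13 in the last and 0.38 between 30 and 35 Mb, and 27.1% of its single probes were below 0. The whole-chromosome segment had a mean of 0.30, a tumour signal of 1.23 times that of the reference, which is below the 1.28 times of the long gain of ARF-104. In this tumour 10 autosomal segments were called gained, and the one on chromosome 17 was second in length (90.3 Mb, after one of 100 Mb) and in place 8 by level. Chromosome 19 stood at 0.58 in the same tumour, the next above chromosome 17, and chromosome 16 at 0.29, the next below it. With no breakpoint inside the chromosome, its level rests on the centring of the array. On the mode of the autosomal ratios in place of the median it was 0.27, still above the threshold. With normexp background correction it was 0.16, and 2.79% of the members were in gained segments, with 17 breakpoints. With the threshold at 0.35 none of it was called.

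The number of breakpoints on chromosome 17 was compared with that on the other autosomes. ARF-104 and ARF-112 had 4 each, against a median over 19 autosomes of 2 for ARF-104 and 4 for ARF-112. In ARF-104 5 autosomes had more than chromosome 17, and in ARF-112 6 had more. ARF-110 had 72 breakpoints on all autosomes and 0 on chromosome 17, and only 3 of its 19 autosomes had none. Its noise per probe of 0.15 was the lowest of the series, but its array held 1682 members, and the SE of its step at the terminal edge, 0.12, was larger than the 0.09 of ARF-104. ARF-128 had 11 breakpoints on all autosomes and ARF-129 43, and neither had one on chromosome 17.

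Genes were given the mean log2 ratio of their probes, which is the value printed for each gene below, with names updated through RefSeq by accession for 715 of the gene names on this chromosome, by symbol for 11 and by synonym for 13, and kept as in the files for 377. Probe numbers given for a gene are those of the denser design. ARF-110, measured on the sparser design, often had fewer. A gene was counted as gained or lost when all its probes lay in segments called so. By this count ARF-104 had 553 of 1114 chromosome 17 genes gained, against 15.8% of all autosomal genes, and 19 lost, against 0.483%. ARF-112 had 59 gained, against 10.7%, and ARF-129 all 1114, against 22%. No gene of the chromosome was called in ARF-110 or ARF-128, where 13.7% and 8.74% (8.83% on the sparser array of ARF-128) of autosomal genes were gained. No gene of chromosome 17 was called lost in the 4 tumours other than ARF-104, where 2.59% (ARF-110), 11.3% (ARF-112), 1.86% (both arrays of ARF-128) and 28.3% (ARF-129) of autosomal genes were lost. Genes in a segment share its call, so these counts give the gene content of the segments and are not separate findings.

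The proximal genes Map3k4 and Igf2r lay in the first segment of ARF-104, which was not called. Map3k4, a kinase of the stress response, had -0.14 for ARF-104, -0.03 for ARF-110, 0.01 for ARF-112, -0.24 for ARF-128 and 0.22 for ARF-129 over 12 probes (2 for ARF-110). Igf2r, the imprinted receptor that clears insulin-like growth factor 2, had -0.08 for ARF-104, -0.23 for ARF-110, -0.03 for ARF-112, -0.11 for ARF-128 and 0.21 for ARF-129 over 15 probes (2 for ARF-110). Of the 24 proximal and very large genes that were looked for, 21 were measured, 0 of them were gained or lost for ARF-104, ARF-110, ARF-112 or ARF-128, and all 21 were gained for ARF-129. Over all chromosome 17 genes 553 of 1114 were gained for ARF-104, 59 for ARF-112 and 1114 for ARF-129. The median over the list was -0.02 for ARF-104, -0.05 for ARF-110, 0.09 for ARF-112, 0.01 for ARF-128 and 0.37 for ARF-129. The medians over all genes of the chromosome were 0.20 for ARF-104, 0.01 for ARF-110, 0.08 for ARF-112, -0.12 for ARF-128 and 0.33 for ARF-129, and those over all autosomal genes -0.01 for ARF-104, 0.00 for ARF-110, 0.04 for ARF-112, -0.07 for ARF-128 and 0.00 for ARF-129.

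The growth-control genes lay mostly between 22 and 33 Mb, before the start of the ARF-104 gain. Tsc2, which restrains the growth kinase mTOR, at chr17:22778730-22807676 had 0.24 for ARF-104, 0.00 for ARF-110, 0.43 for ARF-112, -0.12 for ARF-128 and 0.63 for ARF-129 over 7 probes on the denser arrays. Axin1, a scaffold that limits Wnt signalling, had -0.02 for ARF-104, -0.01 for ARF-110, 0.20 for ARF-112, -0.16 for ARF-128 and 0.45 for ARF-129 over 9 probes. Notch3, a receptor of cell fate signalling, had 0.13 for ARF-104, 0.07 for ARF-110, 0.24 for ARF-112, 0.31 for ARF-128 and 0.72 for ARF-129 over 7 probes. These genes were thus highest for ARF-129, and none of them was called for ARF-104. Some genes of the list were read by 1 probe. Cdkn1a, the p21 inhibitor of cyclin-dependent kinases, had 1 probe with -0.16 for ARF-104, -0.25 for ARF-110, 0.10 for ARF-112, 0.61 for ARF-128 and 0.04 for ARF-129. Daxx, a histone chaperone, had 1 probe with 0.71 for ARF-104, 0.08 for ARF-110, 0.78 for ARF-112, 0.59 for ARF-128 and 0.92 for ARF-129. The sparser array of ARF-128 gave -0.82 for Cdkn1a, of opposite sign to its denser array, and 0.66 for Daxx. Of the 24 genes of this list 5 were gained for ARF-104, namely Runx2, Vegfa, Cul7, Cdc5l and Ccnd3. All 24 were gained for ARF-129 and 0 in the other 3 tumours. The chromosome as a whole had 553 of 1114 genes gained for ARF-104, 59 for ARF-112 and 1114 for ARF-129. The list had medians of 0.12 for ARF-104, 0.00 for ARF-110, 0.10 for ARF-112, 0.08 for ARF-128 and 0.32 for ARF-129.

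Inside the long gain of ARF-104 the genes had the following levels. Runx2, a bone transcription factor with 29 probes (3 for ARF-110) at chr17:42730691-42937607, had 0.38 for ARF-104, 0.00 for ARF-110, 0.02 for ARF-112, 0.05 for ARF-128 and 0.29 for ARF-129. It is one of the better measured genes there, and it was high in the 2 tumours whose segments were called and near 0 in the other 3. Vegfa, which drives the growth of blood vessels, had 0.34 for ARF-104, -0.02 for ARF-110, 0.04 for ARF-112, -0.18 for ARF-128 and 0.37 for ARF-129 over 3 probes. Cul7, a scaffold of a ubiquitin ligase, had 0.63 for ARF-104, 0.32 for ARF-110, 0.50 for ARF-112, 0.21 for ARF-128 and 0.66 for ARF-129 over 5 probes, above 0 in all 5 tumours, and -0.10 on the sparser array of ARF-128. Ccnd3, a D-type cyclin, was read by 1 probe, at 0.48 for ARF-104.

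The study's title names signalling by tumour necrosis factor and NF-kB, and 10 of 12 listed genes of that system were measured on chromosome 17. Of these 9 were gained for ARF-104, 3 in ARF-112 (Tnfsf9, Cd70 and Tnfaip8l1) and 10 for ARF-129. The tenth for ARF-104, Traf7, lies before the gain and had -0.01. These calls follow the segments, in which 553 of 1114 chromosome 17 genes were gained for ARF-104, 59 for ARF-112 and all 1114 for ARF-129. Tnf itself had 1 probe, at chr17:33295682-33295741, with 0.53 for ARF-104, 0.20 for ARF-110, 0.70 for ARF-112, 0.85 for ARF-128 and 0.40 for ARF-129. It was above 0 in all 5 tumours, also in those in which its segment was not called, and its order among tumours did not follow that of the segments. Nfkbie, which holds NF-kB in the cytoplasm, had 0.70 for ARF-104, 0.02 for ARF-110, 0.41 for ARF-112, 0.58 for ARF-128 and 0.76 for ARF-129 over 3 probes. Tnfrsf21, a receptor with a death domain and 9 probes, had 0.27 for ARF-104, 0.06 for ARF-110, 0.08 for ARF-112, -0.27 for ARF-128 and 0.29 for ARF-129. The ligand gene Cd70, at the end of the short gain, had 0.76 for ARF-104, -0.03 for ARF-110, 0.60 for ARF-112, -1.53 for ARF-128 and 0.83 for ARF-129 at 1 probe, and the sparser array of ARF-128 gave 0.32 at the same probe. The medians of the list were 0.58 for ARF-104, 0.06 for ARF-110, 0.32 for ARF-112, -0.22 for ARF-128 and 0.61 for ARF-129.

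In the gene-dense stretch between 54 and 55 Mb 22 of 27 listed names were measured by the denser design, and the sparser one measured 20. All 22 were gained in ARF-104 and ARF-129 and 18 for ARF-112. Their calls are those of the segments, which took in 553 of 1114 chromosome 17 genes for ARF-104, 1114 for ARF-129 and 59 for ARF-112. Dpp9, a dipeptidyl peptidase, had 0.65 for ARF-104, 0.12 for ARF-110, 0.43 for ARF-112, 0.20 for ARF-128 and 0.66 for ARF-129 over 6 probes. Ptprs, a receptor tyrosine phosphatase, had 0.63 for ARF-104, 0.12 for ARF-110, 0.32 for ARF-112, 0.27 for ARF-128 and 0.62 for ARF-129 over 8 probes. Ranbp3, a cofactor of nuclear export, had 0.77 for ARF-104, 0.11 for ARF-110, 0.59 for ARF-112, 0.32 for ARF-128 and 0.91 for ARF-129 over 6. These genes were above 0 in all 5 tumours. Kdm4b, a histone demethylase with 11 probes (1 for ARF-110), had 0.45 for ARF-104, 0.18 for ARF-110, 0.30 for ARF-112, -0.21 for ARF-128 and 0.53 for ARF-129, with 0.51 at 1 probe on the sparser array of ARF-128. Not every gene of the stretch was high, as Nrtn and Tubb4a, with 1 probe each, had -0.42 and -0.28 for ARF-104. Vav1, an exchange factor of blood cells just past the end of the stretch, had 0.13 for ARF-104, -0.13 for ARF-110, -0.08 for ARF-112, -0.39 for ARF-128 and -0.10 for ARF-129. The medians over the list were 0.43 for ARF-104, 0.08 for ARF-110, 0.22 for ARF-112, -0.13 for ARF-128 and 0.41 for ARF-129. Rpl36, which had 1.24 in ARF-104 at 1 probe, is a ribosomal protein gene with processed copies elsewhere in the genome, so its value is uncertain.

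**Figure D5:**
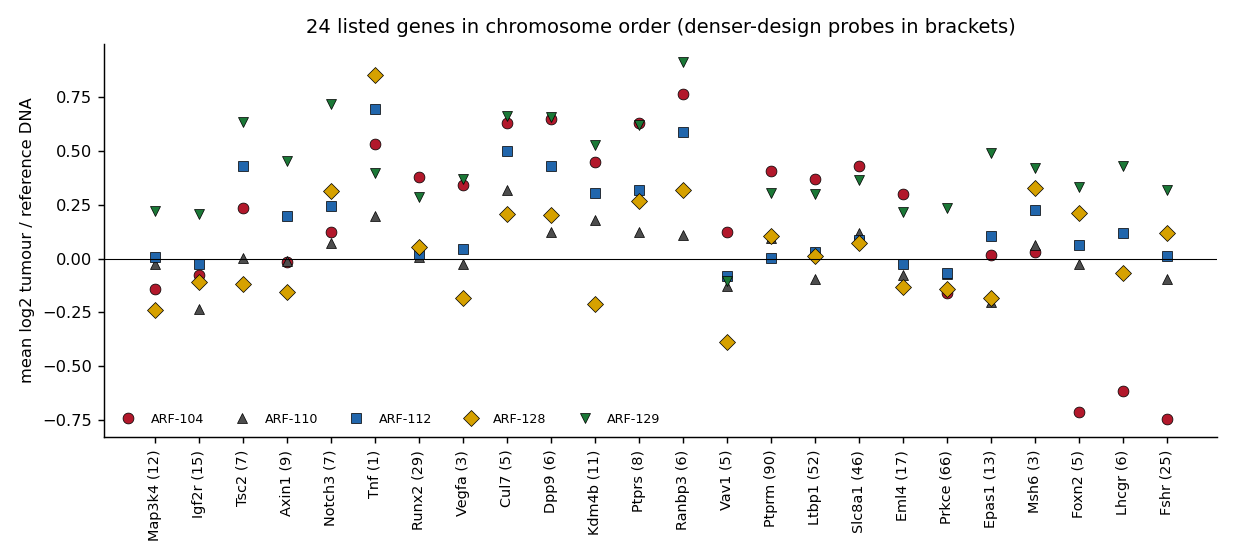
Mean log2 ratio of tumour to reference DNA of 24 listed genes in the 5 tumours, in their order along chromosome 17, with the number of denser-design probes in brackets. Each point is the mean over a gene's probes on the array of 1 tumour. In ARF-104 the genes from Runx2 to Eml4 lie above 0, and Foxn2, Lhcgr and Fshr at the right lie at -0.72, -0.62 and -0.75, while the other tumours show no such drop.

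The distal list held 27 measured genes, of which 16 were gained and 3 lost for ARF-104, 0 called for ARF-110, ARF-112 and ARF-128, and 27 gained for ARF-129. Of all 1114 genes of the chromosome 553 were gained and 19 lost for ARF-104, 59 were gained for ARF-112, and all were gained for ARF-129. Ptprm, a receptor tyrosine phosphatase with 90 probes (4 for ARF-110), had 0.41 for ARF-104, 0.09 for ARF-110, 0.00 for ARF-112, 0.10 for ARF-128 and 0.30 for ARF-129. Ltbp1, a matrix protein that holds latent TGF-beta, had 0.37 for ARF-104, -0.10 for ARF-110, 0.03 for ARF-112, 0.01 for ARF-128 and 0.30 for ARF-129 over 52 probes (2 for ARF-110). Slc8a1, a sodium-calcium exchanger, had 0.43 for ARF-104, 0.12 for ARF-110, 0.09 for ARF-112, 0.07 for ARF-128 and 0.36 for ARF-129 over 46 probes (1 for ARF-110). The sparser array of ARF-128 gave 0.64 for Slc8a1 at 1 probe. Eml4, a microtubule-binding protein, had 0.30 for ARF-104, -0.08 for ARF-110, -0.03 for ARF-112, -0.13 for ARF-128 and 0.22 for ARF-129 over 17 (3 for ARF-110), and lay near the distal end of the gain. On the arrays that represent the tumours, ARF-104 was thus highest in these 4 genes and ARF-129 next. The other tumours lay between -0.13 and 0.12 there, but not every gene of the gain had that order. Lama1, a laminin chain with 16 probes (2 for ARF-110), had 0.28 for ARF-104, 0.00 for ARF-110, -0.14 for ARF-112, 0.12 for ARF-128 and 0.10 for ARF-129. The sparser array of ARF-128 gave -0.31 for Lama1 over 2 probes. Birc6, an inhibitor of apoptosis with 25 probes (3 for ARF-110), had 0.16 for ARF-104, 0.00 for ARF-110, -0.11 for ARF-112, -0.31 for ARF-128 and 0.05 for ARF-129. The medians over the list were 0.24 for ARF-104, 0.00 for ARF-110, 0.00 for ARF-112, -0.13 for ARF-128 and 0.24 for ARF-129.

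Between the gain and the terminal loss of ARF-104 lay 3.54 Mb that were not called in this tumour and that carry 8 genes of the distal list. Prkce, protein kinase C epsilon with 66 probes (4 for ARF-110), had -0.16 for ARF-104, -0.07 for ARF-110, -0.07 for ARF-112, -0.14 for ARF-128 and 0.23 for ARF-129. Epas1, the hypoxia-inducible factor HIF-2 alpha, had 0.02 for ARF-104, -0.20 for ARF-110, 0.11 for ARF-112, -0.18 for ARF-128 and 0.49 for ARF-129 over 13 probes (2 for ARF-110). Msh6, a mismatch repair gene at chr17:86279426-86290813, had 0.03 for ARF-104, 0.06 for ARF-110, 0.23 for ARF-112, 0.33 for ARF-128 and 0.42 for ARF-129 over 3 probes. It lay on the near side of the edge and was not in the loss by these data. The spread among probes of this stretch was wide on the denser arrays, where ARF-104 had an SD of 0.50, ARF-112 one of 0.54, ARF-128 one of 0.94 and ARF-129 one of 0.62. That exceeded the SD in the terminal stretch, in which ARF-104 had 0.38, ARF-112 0.37, ARF-128 0.74 and ARF-129 0.46.

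Past the edge 19 genes lay in the loss of ARF-104, and 3 of them were on the distal list. Foxn2, a forkhead transcription factor and the first gene past the edge, at chr17:86750373-86783591, had -0.72 for ARF-104, -0.02 for ARF-110, 0.06 for ARF-112, 0.21 for ARF-128 and 0.33 for ARF-129 over 5 probes. Lhcgr, the receptor of luteinising hormone, at chr17:87049191-87087592, had -0.62 for ARF-104, -0.06 for ARF-110, 0.12 for ARF-112, -0.07 for ARF-128 and 0.43 for ARF-129 over 6 probes. Fshr, the receptor of follicle-stimulating hormone, at chr17:87293336-87499263, had -0.75 for ARF-104, -0.10 for ARF-110, 0.01 for ARF-112, 0.12 for ARF-128 and 0.32 for ARF-129 over 25 probes (2 for ARF-110). In each of these 3 genes ARF-104 was the lowest tumour, and the other four lay between -0.10 and 0.43 on the arrays that represent them. The sparser array of ARF-128 gave -0.32 for Foxn2, 0.09 for Lhcgr and -0.36 for Fshr, with 2 probes each. The other genes named here were taken from the 19 after their values were seen. Ppp1r21, an endosomal protein, had -0.93 for ARF-104, 0.05 for ARF-110, -0.12 for ARF-112, -0.40 for ARF-128 and -0.01 for ARF-129 over 8 probes. Gtf2a1l, a transcription factor of the germ line, had -0.93 for ARF-104, -0.08 for ARF-110, -0.32 for ARF-112, -0.64 for ARF-128 and 0.01 for ARF-129 over 6 probes. Adcyap1, which encodes the neuropeptide PACAP, had -1.09 for ARF-104 and -0.85 in ARF-128 at 1 probe, which is the noisiest kind of reading here. The sparser array of ARF-128 gave -0.16 for Adcyap1. The transcripts BC047146 (81 probes) and AK158622 (56 probes) had -0.83 and -0.84 for ARF-104, and between -0.20 and 0.20 in the other 4 tumours. Mettl4, a methyltransferase near the last probe, had -0.73 for ARF-104, 0.28 for ARF-110, -0.08 for ARF-112, -0.86 for ARF-128 and 0.10 for ARF-129 over 3 probes, and 1.21 at 1 probe on the sparser array of ARF-128.

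Some genes are often variable between strains of mice, and these were listed apart because the reference DNA was from C57BL/6J and the strain of the tumours is not given. Of 21 such names 14 were measured, 4 of them were gained in ARF-104 (C4a, Trem1, Trem2 and Treml1), 14 for ARF-129 and 0 in the other 3 tumours. Among all chromosome 17 genes 553 of 1114 were gained for ARF-104, 1114 for ARF-129 and 59 for ARF-112. Glo1, glyoxalase 1, which is duplicated in some strains, had -0.32 for ARF-104, -0.05 for ARF-110, -0.15 for ARF-112, -0.74 for ARF-128 and -0.03 for ARF-129 over 4 probes. C4a, a complement gene with a near-identical copy, C4b, beside it, had 0.76 for ARF-104, 0.12 for ARF-110, 0.53 for ARF-112, 0.38 for ARF-128 and 0.84 for ARF-129 over 15 probes (2 for ARF-110). The probes may read both copies, so this value is uncertain for either gene. The medians of the list were -0.01 for ARF-104, -0.05 for ARF-110, 0.13 for ARF-112, -0.18 for ARF-128 and 0.37 for ARF-129.

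Genes of 1 sign in all tumours were then taken from the 490 that had at least 3 probes on the denser design and a value in 5 tumours. Of these 490, 86 were above 0 in all 5 tumours, against 12.5% of all such autosomal genes, and 18 were below 0, against 16.7%. The chromosome was chosen by its levels on these same arrays, which also set these signs, so the counts are no separate finding. The 5 highest by mean were Slc9a3r2 (0.62 ± 0.28), Crip3 (0.59 ± 0.43), Ranbp3 (0.54 ± 0.33), C4a (0.53 ± 0.29) and Def6 (0.52 ± 0.27, SD, n = 5 each). Slc9a3r2, a scaffold of membrane transporters, had 0.58 for ARF-104, 0.25 for ARF-110, 0.62 for ARF-112, 0.61 for ARF-128 and 1.04 for ARF-129, all from segments of which only that of ARF-129 was called. Def6, an exchange factor of lymphocytes, lay in an uncalled segment of ARF-104 likewise, and its sparser reading in ARF-128 was -0.27, against 0.66 on the denser array. The 5 lowest were Zfp160 (-0.38 ± 0.34), Tulp1 (-0.36 ± 0.19), BC060501 (-0.34 ± 0.22), Cacna1h (-0.34 ± 0.39) and Zfp472 (-0.29 ± 0.05). Zfp472, a zinc finger gene, was the most even of them, with values between -0.34 and -0.22 in the 5 tumours, but the sparser array of ARF-128 gave -0.92. BC060501 lay inside the long gain of ARF-104 and had -0.10 there. The 10 genes have between 3 and 15 probes each on the denser design.

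Single probes of 1 sign on the 4 denser arrays, which all used the same reference, were counted last. Of the 8779 members with a value on all 4, 232 (2.64%) were at or below -0.5 on each, against 5.75% of autosomal probes, and 443 (5.05%) were at or above 0.5, against 3.61%. The high ones were most frequent in the megabase from 54 to 55 Mb, with 31 of 177 probes, and from 32 to 34 Mb, with 23 of 174 and 20 of 189. These are the place of the short gain of ARF-112 and the surroundings of the start of the long gain of ARF-104, where steps of the same sign were seen on most arrays. The stretch of the short gain lay in called gains also in ARF-104, at a mean of 0.49, and in ARF-129, at 0.51. Probes there start nearer to the limit of 0.5 on these arrays. What these shared probes owe to the gains, to the reference DNA, to base composition or to the probes themselves was not tested.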

How the data were processed

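Genomic DNA of 5 mouse mesotheliomas was measured on 6 Agilent arrays with 2 colours. Per the file headers, the intensity values came from Agilent Feature Extraction, version 8.5.1.1 for the sparser design, 9.5.3.1 for the denser array of ARF-128 and 9.1.3.1 for the remaining arrays. The deposited files also hold a log10 ratio per spot, which correlated at 0.995 to 1.00 with the ratio of the processed red and green signals. The authors' deposited value table repeats these ratios, on a log10 scale for sparser and a log2 scale for denser arrays, as a comparison with the scanner values showed. Its medians per array were 0 for ARF-110 and 0.018 for the sparser array of ARF-128 (log10), and between 0.0200 and 0.0491 on the denser arrays (log2). As it repeats the scanner ratios, no centring was added to them. Scale and direction are settled.

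Here log2 of processed red over green was taken, control spots and outlier flags were left out, spots of a probe averaged and each array centred on its autosomal median. Segments came from the PELT algorithm with squared error, a penalty of 5 times the log of the number of probes of the chromosome, and at least 5 probes. It was tried on simulated data with independent noise and no effect of base composition. That trial therefore says nothing about breakpoints where base composition changes. Positions are mm7, from the 1 header that names a build, and the sparser design was joined by probe name. Normexp (an alternative) used limma 3.58.1 in R 4.3.3, and the rest Python 3.11.15 with numpy 2.4.6 and pandas 2.3.3.

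Genes named are members of 6 lists, genes at breakpoints, and, among genes with at least 3 probes, the 5 highest and 5 lowest of 1 sign in 5 tumours. Some listed genes are counted but not reported here. Members and lists were chosen with earlier results of these data known. The numbers of the tumours were taken to mean separate animals, although the design text counts fewer mice than tumours, and SDs are over tumours. The number of arrays limits the precision. Alternatives changed the signal, centring, base composition correction, flags, probes, threshold, penalty, segment size, noise estimate and tumours used.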

Additional observations from a re-analysis of the deposited data

Results flagged for a closer look

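In 5 of 63 sets of 5 tumour values, taken over the chromosome, its stretches and the genes named above, 1 tumour lay far from the other 4 (its gap to the nearest exceeded 0.71 of the range). Chance alone flags about 1 in 20 such sets, and the sets overlap. The chromosome was chosen, and its stretches were divided, by these same values, so the rule serves here only to list values and is no test of them. ARF-104 stood apart in the terminal stretch, at -0.82, with the next lowest tumour at -0.09. ARF-129 stood apart in the first 18.2 Mb, at 0.26 against a next highest of -0.02, in the 3.54 Mb before the terminal loss, at 0.30 against 0.00, and in Prkce, which lies in that stretch, at 0.23 against -0.07. ARF-128 stood apart in Cacna1h, a calcium channel gene with 7 probes, at -1.02 against a next lowest of -0.26, and its sparser array gave -0.84 there. The terminal and the 3 ARF-129 values are parts of called segments and not separate events.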

How the results depend on the processing

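The level of chromosome 17 over 5 tumours, 0.08, and the mean gained and lost shares, 31.1% and 1.23%, moved by less than the SD over tumours under all 63 alternative values computed, but these SDs are wide. Leaving out 1 tumour gave levels of 0.02 (without ARF-129) to 0.11 (without ARF-128), gained shares of 13.9% (without ARF-129) to 38.9% (without ARF-110 or ARF-128) and lost shares of 0% (without ARF-104) to 1.54%. Scan group 1 alone gave a level of -0.00 with 0% gained and lost, and scan group 2 0.15 with 51.9% and 2.06%. The gained share was 11.2% with normexp background correction and 10.6% with a threshold of 0.35, since the gain of ARF-129 was then uncalled or nearly so (2.79% and 0% of its members). The terminal loss of ARF-104 kept its edge at the same probes under all 12 settings run, but its mean was -0.32 with normexp. With the probes of both designs alone 1.84% of ARF-104 members were lost, fewer probes lying there. The short gain of ARF-112 was not called with normexp, the mode as centre, correction for G and C content, probes of both designs alone, a threshold of 0.35 or a penalty of 10 log n; the cause was not tested for each. On the mode ARF-112 was at -0.05 and ARF-128 at -0.24. A penalty of 3 log n gave 5, 8 and 6 breakpoints in ARF-110, ARF-112 and ARF-129, and normexp 7 in ARF-112 and 17 in ARF-129. The start and end of the long gain and the start of the loss in ARF-104 were found within 250 kb under all 12 settings, and that at 21.2 Mb under 10 in ARF-104 and 11 in ARF-112. No paired analysis was possible because all tumours form 1 group. On the denser array of ARF-128, with a noise of 0.78, no breakpoint was placed at 21.2 Mb, where its step over 50 probes was 0.35, against 0.37 in ARF-112.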
